A study of Arabidopsis thaliana with 30 samples.

Results

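Cells of Arabidopsis thaliana labelled as lateral root cap were collected from roots grown with high phosphate (HPi). They were represented by 3 samples of the line J3411, out of 30 samples in all and 15 at HPi. Which samples belong to the sort was read from their labels, and they were compared with the mean of the 4 other cell types sorted at HPi, each with 3 samples. The other sorts came from the lines WER::GFP (epidermis), J0571 (cortex), J0661 (pericycle) and SHR::GFP (stele), and each of these 5 lines, J3411 included, is labelled as wild type. Seedlings were raised for 6 days at 22 °C with 16 h of light and 8 h of darkness, and cells carrying the reporter were collected by fluorescence-activated cell sorting. The same 5 sorts were also made at low phosphate (LPi), given as 5 µM in the treatment protocol but as a medium without phosphate in the sample labels. Each cell type came from a line of its own, so cell type and line cannot be told apart. The J lines are enhancer trap lines, in which the reporter follows an unknown neighbouring enhancer, and the WER promoter is known to be active in the lateral root cap as well as in the epidermis.

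The lateral root cap is a thin sheath that surrounds the root tip outside the epidermis and arises from the same stem cells as the epidermis. Its cells live briefly: as they reach the start of the elongation zone they undergo a programmed death, during which nucleases and proteases clear their content, or are shed together with the columella. The tissue is known as the first contact of the root with soil, where it takes part in phosphate uptake, in defence and in moving auxin away from the tip. In sorted bulk samples such as these, fewer cells of a type and less RNA per cell cannot be told apart.

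Reads assigned to genes numbered 4434144, 15848853 and 23870243 in lateral root cap replicates 1, 2 and 3, against 1097568 to 122076663 in the other HPi libraries. Levels are given in CPM, the reads of a gene scaled to a common library total by TMM, a scaling that sets aside genes with extreme ratios. Mitochondrial transcripts took 2.79% to 3.14% of the reads in the lateral root cap sort, 2.17% to 3.39% in the epidermis sort and 0.854% to 1.77% in the other 3. The epidermis libraries of replicate 3 at HPi and at LPi were closer to each other (r = 0.978 over 24866 genes) than any other pair of epidermis libraries (0.869 to 0.947). Fits without those 2 libraries, and without the 3 with the fewest reads, are therefore given beside the counts they move. Whether the 3 replicates of a sort were grown separately is not in the labels, and p-values therefore cover the spread between these libraries, which may be technical.

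Across the genome, the lateral root cap sort stood far from the inner tissues and close to the epidermis sort. Of 24866 genes tested with edgeR, 3082 (12.4%) were higher and 2866 (11.5%) were lower than the mean of the 4 other sorts, at an adjusted p under 0.05. With RLE size factors in place of TMM the split was 4687 higher and 2104 lower, and the median log2 difference over all genes was 0.35 instead of 0.02. Leaving out lateral root cap replicate 2 or 3 brought the lower calls to 1783 or 1721. Without the 3 libraries with the fewest reads the counts were 3872 and 3276, and without the nearly identical epidermis libraries 3553 and 2531.

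Taken one sort at a time, the comparison with the epidermis gave the fewest calls, with 156 genes higher (0.627%) and 322 lower (1.29%). The median SE over all genes was 0.99 in this comparison and 0.78 against the mean of 4. A missing call against the epidermis therefore does not show equal levels. The sort labelled cortex, which was rich in endodermis transcripts as given below, gave 1604 higher (6.45%) and 2434 lower (9.79%). Against the pericycle sort 2568 genes were higher (10.3%) and 3942 lower (15.9%), and against the stele sort 2600 (10.5%) and 3931 (15.8%). Correlations of log2 CPM between libraries over the 24866 genes, a description only, were 0.781 to 0.825 within the lateral root cap sort, 0.745 to 0.860 with epidermis libraries, 0.694 to 0.794 with cortex, 0.619 to 0.754 with pericycle and 0.635 to 0.740 with stele. The epidermis libraries were thus the nearest to the lateral root cap libraries, within a range that overlaps the cortex. Lateral root cap replicate 1 correlated at 0.812 to 0.860 with epidermis libraries and at 0.788 to 0.825 with its own sort. For replicate 3 these ranges were 0.796 to 0.843 and 0.781 to 0.825, and for replicate 2 they were 0.745 to 0.810 and 0.781 to 0.788. Replicates 1 and 3 were thus no closer to their own sort than to the epidermis. The 3082 higher genes had a median log2 difference of 3.05 from the mean of the 4 sorts and of 0.52 from the epidermis sort alone. For the 2866 lower genes the medians were -2.08 and -0.98.

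**Figure D1:**
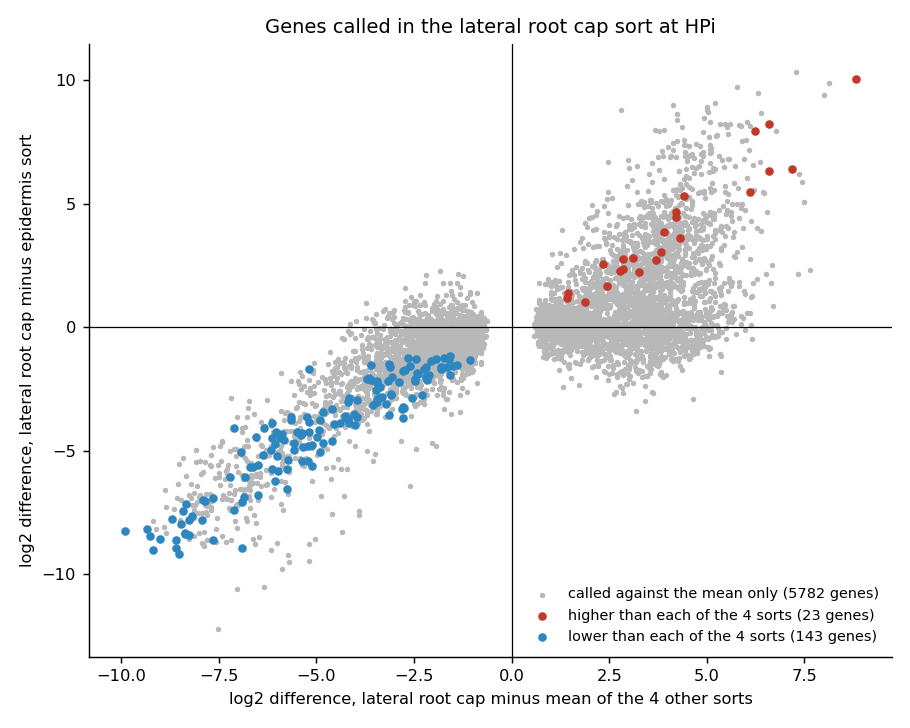
Each point is a gene called at HPi, placed by its log2 difference from the mean of the 4 other sorts (horizontal) and from the epidermis sort alone (vertical), 2 comparisons that share the lateral root cap and epidermis libraries. Of the 3082 genes to the right 2108 lie above 0 on the vertical axis, with a median of 0.52. Of the 2866 to the left 2547 lie below 0, with a median of -0.98. The 23 red and 143 blue points are the genes called higher or lower than each of the 4 sorts.

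The label was first checked against the markers of the root cap. SMB, BRN1 and BRN2 are NAC transcription factors that drive the maturation and detachment of root cap cells, and BFN1 is a nuclease that degrades nucleic acids in dying cap cells. All 4 were higher in the lateral root cap sort than in the mean of the other sorts, and none was called against the epidermis sort by edgeR.

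SMB (AT1G79580), the first of the markers, had 7.1, 5.04 and 12.7 CPM in lateral root cap replicates 1 to 3. Its level was 29.8, 29.2 and 14.7 CPM in the epidermis sort and 0 to 1.34 CPM (median 0.363) in the 9 cortex, pericycle and stele libraries. Every lateral root cap library was above the 9 inner libraries and below the 3 epidermis libraries (log2 difference 3.01, SE 0.93, adjusted p = 0.0204). Against the epidermis sort alone the log2 difference was -1.56 (adjusted p = 0.648). Without lateral root cap replicate 3 the adjusted p against the mean of 4 was 0.0926 in edgeR.

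BFN1 (AT1G11190), the nuclease, had 491, 574 and 1543 CPM in lateral root cap libraries, 944, 764 and 676 CPM in epidermis libraries and 0.0656 to 121 CPM (median 12.4) in the inner sorts. Lateral root cap and epidermis libraries overlapped, and both lay above the stele, the highest of the inner sorts (log2 difference 4.34, SE 0.64, adjusted p = 5.02e-05). BRN1 (AT1G33280) had 61.6, 59.2 and 82.8 CPM in the lateral root cap and 127, 110.5 and 157 CPM in the epidermis sort, with 0 to 2.02 CPM (median 0.634) inside (log2 difference 4.74, SE 1.02, adjusted p = 0.00192). BRN2 (AT4G10350) had 43.9, 82.5 and 142 CPM in lateral root cap libraries and 99.3, 91.6 and 121 CPM in the epidermis sort (log2 difference 4.73, SE 0.77, adjusted p = 0.000135). FEZ, a NAC factor of the root cap stem cells, had reads in only 1 lateral root cap library (0, 1.7 and 0 CPM).

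Of the 6 root cap regulators listed, 4 were higher and 0 lower, with a median log2 difference of 2.86 against 0.02 over all genes. The fourth was ARF16, an auxin response factor that restrains the stem cells of the cap, at 19.2, 7.53 and 26.3 CPM (log2 difference 2.71, SE 0.85, adjusted p = 0.024). Without lateral root cap replicate 3 its adjusted p was 0.11 in edgeR. Against the epidermis sort alone the median of the 6 was -0.90 and 0 were called by edgeR, DESeq2 or limma, 0 also at an unadjusted p under 0.05. Root cap transcripts were therefore present in the sort labelled lateral root cap and were not particular to it among these 5 sorts.

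**Figure D2:**
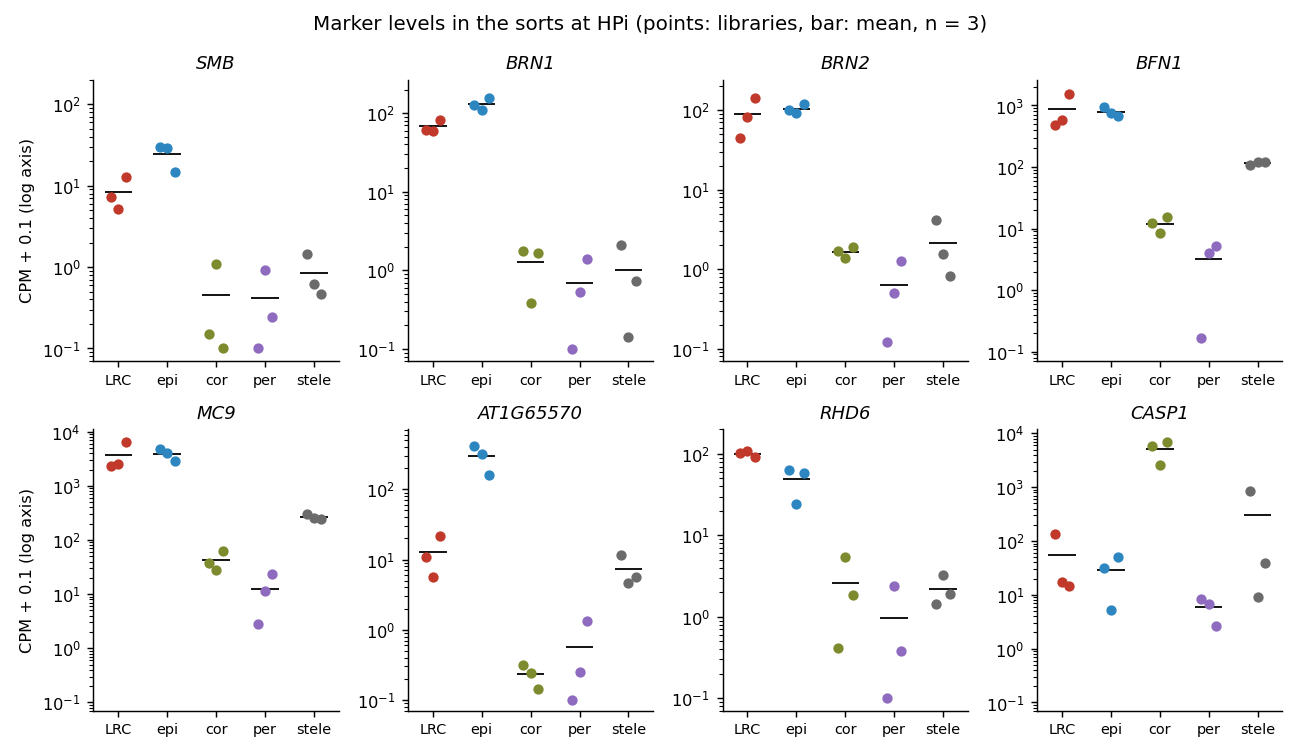
Level of 8 marker genes (CPM + 0.1, log axis) in the 15 HPi libraries of the lateral root cap (LRC), epidermis (epi), cortex (cor), pericycle (per) and stele sorts, with 1 point per library and a bar at the mean of 3. The root cap genes SMB, BRN1, BRN2, BFN1 and MC9 and the root hair gene RHD6 were high in the lateral root cap and epidermis sorts, AT1G65570 was highest in the epidermis sort and CASP1, of the endodermis, in the cortex sort.

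Genes of root cap cell death followed the same order. Of 15 genes for death and separation of cap cells, 11 were higher and 1 was lower, with a median log2 difference of 3.32, and against the epidermis sort alone the median was -0.18 with 0 called by edgeR. At an unadjusted p under 0.05, 0 were higher and 4 lower than in the epidermis, and DESeq2 called 3 and limma 4 of them lower. Their summed level was 4595 to 12228 CPM in the lateral root cap libraries, 6303 to 8771 CPM in epidermis and 87.3 to 1111 CPM in the inner sorts.

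MC9 (AT5G04200), a metacaspase that acts in cell clearance, had 2309, 2502 and 6465 CPM in lateral root cap libraries and 2.71 to 299.8 CPM (median 36.7) in the inner sorts (log2 difference 4.62, SE 0.60, adjusted p = 1.2e-05). RNS3 (AT1G26820), a ribonuclease, had 983, 913 and 2555 CPM against 0.46 to 109 CPM (median 16.6) inside (log2 difference 4.99, SE 0.57, adjusted p = 2.29e-06). Replicate 3 was the highest of the 3 lateral root cap libraries for both genes, and for both every library exceeded the 9 inner ones. AT4G18425, a membrane protein of the DUF679 family, had 179, 219.6 and 366 CPM (log2 difference 4.23, SE 0.37, adjusted p = 2.94e-08).

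The NAC factors NAC046 (AT3G04060) and ANAC087 (AT5G18270), which promote death of root cap cells, were also higher. NAC046 had 42.8, 76 and 64 CPM in the lateral root cap and 68.2, 58.1 and 125 CPM in the epidermis sort (log2 difference 3.39, SE 0.46, adjusted p = 8.38e-06). ANAC087 had 70.0, 109 and 138 CPM and 93.9, 129 and 136 CPM (log2 difference 2.67, SE 0.30, adjusted p = 4.09e-07). The epidermis and lateral root cap libraries overlapped for both, and all were above the inner ones. The other higher members were BFN1, the saposin-like aspartyl protease AT4G04460 (log2 difference 2.83, SE 0.49, adjusted p = 0.000208), the uncharacterized AT2G14095 (log2 difference 4.02, SE 0.67, adjusted p = 0.000154), the carboxypeptidase SCPL48, the cysteine protease CEP1 and IDL1, which encodes a peptide of root cap shedding (log2 difference 3.32, SE 0.56, adjusted p = 8.13e-05). AT4G04460 overlaps a gene on the opposite strand, so reads of the pair cannot be told apart here.

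Wall hydrolases of cap separation did not share that pattern. CEL5 (AT1G22880), a cellulase expressed as cap cells detach, had 1.14, 1.02 and 0 CPM in lateral root cap libraries and 16.6, 17.7 and 28.6 CPM in the epidermis sort, and the lateral root cap libraries were below all 12 others (log2 difference -3.71, SE 1.24, adjusted p = 0.0319). Without lateral root cap replicate 1, 2 or 3 its adjusted p was 0.0586, 0.0739 or 0.116 in edgeR. AT1G65570, a pectin lyase-like protein, had 10.8, 5.5 and 21.3 CPM in the lateral root cap and 419, 322 and 158 CPM in the epidermis sort, with no call against the mean of 4 (adjusted p = 0.112) or against the epidermis (adjusted p = 0.0799). CEL3 had 14.9, 0.17 and 23.7 CPM and 186, 149 and 116 CPM in the same sorts, without a call in either comparison.

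Root hair genes were among those that set the lateral root cap and epidermis sorts most clearly apart from the inner sorts. Hair cells are epidermal, and their growth is started by the bHLH factors RHD6, RSL2 and RSL4, which turn on wall proteins of the growing tip. Of 13 root hair genes, 12 were higher and 0 lower, with a median log2 difference of 4.13. Against the epidermis sort the median was -0.11 with 0 called by edgeR, 1 higher at an unadjusted p under 0.05 and 1 higher with DESeq2. Their sum was 992 to 1565 CPM in the lateral root cap and 736 to 1535 CPM in the epidermis libraries, and 225 to 567 CPM inside. What part epidermal cells had in these levels was not tested.

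RHD6 (AT1G66470) had 102, 109.5 and 92.1 CPM in the lateral root cap, 62.8, 24.2 and 59 CPM in the epidermis and 0 to 5.39 CPM (median 1.73) in the inner sorts (log2 difference 4.69, SE 1.03, adjusted p = 0.00224). Here all lateral root cap libraries were above all 12 others, though the difference from the epidermis alone was not called (adjusted p = 0.821). RSL4 (AT1G27740) had 45.1, 41.1 and 32 CPM, overlapping the epidermis at 11, 12.2 and 35.6 CPM (log2 difference 4.13, SE 0.51, adjusted p = 1.48e-06). LRX1 (AT1G12040), a wall protein with extensin repeats, had 38.5, 74.7 and 28.3 CPM (log2 difference 4.94, SE 0.83, adjusted p = 0.000184). EXPA7, EXPA18, COBL9 and PRP3, wall proteins of hair cells, had log2 differences of 4.85, 3.95, 4.61 and 4.73.

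Regulators of epidermal fate were mixed, with 4 of 10 higher and 1 lower and a median log2 difference of 0.90. GL2 (AT1G79840), a homeodomain factor of non-hair cells, had 25.9, 8.5 and 4.3 CPM in the lateral root cap, 14.5, 26.4 and 26.8 CPM in the epidermis and 0 to 0.779 CPM (median 0.272) in the inner sorts (log2 difference 3.90, SE 1.0, adjusted p = 0.00663). WER (AT5G14750), the MYB factor whose promoter drives the epidermis reporter, had 3.89, 0.906 and 2.48 CPM in the lateral root cap and 19.1, 12.8 and 12.6 CPM in the epidermis sort, with no overlap (log2 difference 2.86, SE 0.99, adjusted p = 0.0353). MYB23, a close relative of WER, had 24.5, 27.1 and 18 CPM (log2 difference 3.65, SE 0.85, adjusted p = 0.00286), and CPC, a mobile repressor of the same pathway, was lower at 17.2, 4.25 and 16 CPM (log2 difference -1.09, SE 0.34, adjusted p = 0.0214). Without 1 library the edgeR adjusted p passed 0.05 in 3 of them: GL2 at 0.0573 without lateral root cap replicate 1, CPC at 0.242 without replicate 2 and 0.0504 without epidermis replicate 1, and WER at 0.0536 to 0.0948 without lateral root cap replicate 1 or 3, pericycle replicate 3 or stele replicate 2.

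Few markers of the inner tissues were called. Of 12 endodermis genes 0 were called by edgeR, DESeq2 or limma, with 0 higher and 1 lower at an unadjusted p under 0.05 and a median log2 difference of -1.18. Their summed level was 286.5, 32.7 and 39.4 CPM in lateral root cap replicates 1, 2 and 3, against 16.0 to 122 CPM in epidermis, 10.5 to 27.1 CPM in pericycle, 30.4 to 1727 CPM in stele and 5519 to 13606 CPM in the cortex sort. The lateral root cap libraries thus lay above the pericycle ones and below the cortex ones. Among the lateral root cap libraries replicate 1 was the highest, with CASP1 (AT2G36100), which builds the Casparian strip, at 135, 16.9 and 14.7 CPM. Xylem markers summed to 12.7 to 62.3 CPM against 2777 to 4812 CPM in the stele sort, and phloem markers to 9.94 to 43.5 CPM against 239 to 373 CPM in pericycle. Of 8 xylem genes 1 was lower, CESA4 of the secondary wall (log2 difference -2.59), and of 7 phloem genes 0 were called by edgeR (1 higher and 2 lower at an unadjusted p under 0.05, 1 lower with DESeq2 or limma). Of 7 stem cell genes 0 were called by edgeR, DESeq2 or limma, with 1 higher at an unadjusted p under 0.05. Among 7 procambium genes 4 were lower and 0 higher (median log2 difference -2.31), among them SHR, whose promoter drives the stele reporter, at 1.37, 0.227 and 0 CPM (log2 difference -4.35, SE 1.06, adjusted p = 0.00388). PLT2, a stem cell factor, and ESB1, of the Casparian strip, had 0 reads in the 3 lateral root cap libraries. In the pericycle list 1 of 7 was lower, LBD16, a factor of lateral root founder cells (log2 difference -2.73, SE 0.50, adjusted p = 0.000245). The cortex list had 2 genes tested and 0 called by edgeR, DESeq2 or limma, also at an unadjusted p under 0.05. The 3 cortex genes listed summed to 28.7 to 43.8 CPM in the sort labelled cortex, far below the endodermis genes in that sort.

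No columella gene was called higher. Starch-filled columella cells sit at the centre of the cap, sense gravity and pass auxin sideways through PIN3 and PIN7. Of 10 columella genes 0 were higher, 0 also at an unadjusted p under 0.05 and with DESeq2, and 3 were lower, with a median log2 difference of -0.74, or -0.19 with groups at 0 set to a floor of 3 reads over the group. PIN3 (AT1G70940) had 2.98, 0.397 and 0.0478 CPM in the lateral root cap, 2.2, 3.44 and 2.97 CPM in the epidermis and 19.9 to 136 CPM (median 71) in the inner sorts (log2 difference -5.09, SE 0.80, adjusted p = 5.02e-05). PIN7 (AT1G23080) had 0.458, 0.0567 and 0 CPM (log2 difference -6.17, SE 1.43, adjusted p = 0.00254), and PGM, the plastid phosphoglucomutase needed for starch, had 0, 1.64 and 1.29 CPM (log2 difference -2.47, SE 0.66, adjusted p = 0.00728). Their lateral root cap levels lay at the low end of the 15 libraries.

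Only a few genes stood apart from every other sort. Higher than each of the 4 sorts, by 4 separate edgeR calls, were 23 genes (0.0925%), and lower than each were 143 (0.575%). These counts move with single libraries. The 23 became 4 without lateral root cap replicate 3, 9 and 10 without epidermis replicate 1 or 2, 14 without epidermis replicate 3, and 13 to 15 without any one of cortex replicates 1, 2 and 3, pericycle replicates 2 and 3 or stele replicates 2 and 3. The 143 became 292, 74 and 69 without lateral root cap replicate 1, 2 or 3, 87 and 79 without epidermis replicate 1 or 2, and 95 without pericycle replicate 3. Without the 3 libraries with the fewest reads they were 53 and 280.

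CYP716A1 (AT5G36110), a cytochrome P450 of a family that oxidizes triterpenes, had the largest difference of the higher genes named. Its level was 11, 18.4 and 46.5 CPM in the lateral root cap and 0 to 0.216 CPM (median 0.0194) in the 12 other libraries (log2 difference 8.82, SE 0.85, adjusted p = 5.93e-08). UBC31 (AT1G36340), a ubiquitin-conjugating enzyme, had 4.12, 10.9 and 20.5 CPM against 0 to 0.234 CPM (median 0.0492) (log2 difference 7.18, SE 0.87, adjusted p = 1.02e-06). LSU4 (AT5G24655), a member of a small family that responds to low sulfur, had 2.52, 3.46 and 14.5 CPM against 0 to 0.481 CPM (median 0.027) (log2 difference 6.61, SE 0.96, adjusted p = 1.38e-05). In these 3 genes replicate 3 was the highest lateral root cap library.

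CYP71B22 (AT3G26200), a further P450, had 26.3, 11.7 and 58.3 CPM against 0 to 2.55 CPM (median 0.358) in the others (log2 difference 6.24, SE 0.88, adjusted p = 1.81e-05). ChiC (AT4G19810), a class V chitinase that cuts fungal wall polymers, had 54.9, 56.5 and 144 CPM against 0.156 to 8.74 CPM (median 0.674) (log2 difference 6.10, SE 0.72, adjusted p = 2.29e-06). Both were far above the epidermis sort as well, with log2 differences of 7.96 (adjusted p = 0.0125) and 5.49 (adjusted p = 0.0178). AT3G28310, of the DUF677 family, had 24.9, 16.9 and 30.7 CPM against 0 to 1.67 CPM (median 0.279) (log2 difference 6.60, SE 0.74, adjusted p = 3.9e-07). Its neighbour AT3G28320, which is not one of the 23 because it was not called against the cortex (edgeR adjusted p = 0.138), had 189.5, 155 and 147 CPM in the lateral root cap, 0, 0 and 0.226 CPM in the epidermis and 14, 12.8 and 15.3 CPM in the cortex sort (log2 difference 7.29, SE 1.09, adjusted p = 6.39e-05). The pair lie side by side and reads may be split between them, so their levels are uncertain.

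The 2 expansins in this set loosen walls during cell growth. EXPA1 (AT1G69530) had 564, 421 and 366 CPM in the lateral root cap, 75.1, 44.6 and 72.3 CPM in the epidermis and 6.43 to 147 CPM (median 53.2) in the inner sorts (log2 difference 3.11, SE 0.45, adjusted p = 2.06e-05). EXP3 (AT2G37640) had 118, 66.1 and 65 CPM, 8.8, 6.02 and 14.8 CPM and 1.59 to 17.6 CPM (median 4.49) (log2 difference 3.84, SE 0.50, adjusted p = 5.44e-06). For both genes the 3 lateral root cap libraries lay above the other 12. HHP1 (AT5G20270), a membrane protein with several spans, had 94.5, 87.9 and 176 CPM in the lateral root cap and 4.12 to 49.8 CPM (median 14.1) elsewhere (log2 difference 2.85, SE 0.31, adjusted p = 2.11e-07).

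Further genes above each sort were CSLB06 (AT4G15320) (log2 difference 4.20), a cellulose synthase-like protein, CYP72A14 (AT3G14680) (3.71), OZF2 (AT4G29190) (2.78), a CCCH zinc finger protein, the amino acid transporter CAT2 (AT1G58030) (1.87), the thioredoxin-like AT5G38900 (4.32), the cytidine deaminase-like AT4G29570 (3.92), the kinesin-like AT5G66310 (2.45), the receptor-like kinase-related AT5G48540 (3.25) and the histone H2B gene HTB11 (AT3G46030) (1.42). The remaining 5 were AT1G09500, AT2G16050, AT4G34630, AT5G40640 and PS2, which is described with the phosphate genes. Smallest in the set was the difference of HTB11, at 161, 139 and 285 CPM against 41.3 to 115 CPM (median 77.6).

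Some of the genes with the largest differences were also present in the epidermis sort, at a lower level. By the naming rule, which asks for a mean of at least 20 CPM and no overlap with the 12 other HPi libraries, 174 higher genes and 314 lower genes qualified. Without the level rule 433 higher (1.74%) and 581 lower (2.34%) called genes did not overlap. ASPGB1 (AT3G16150), an asparaginase, had 396, 264 and 1058 CPM in the lateral root cap, 205, 184 and 50.0 CPM in the epidermis and 0.0438 to 13.4 CPM (median 3.41) inside (log2 difference 6.28, SE 0.93, adjusted p = 5.46e-05). CYP709B2 (AT2G46950), a P450, had 1649.7, 1812 and 5389 CPM and 1035, 1065 and 1096 CPM (log2 difference 5.95, SE 0.93, adjusted p = 0.000105). EXT4 (AT1G76930), an extensin, had 1089.7, 888 and 1124 CPM and 108, 89.1 and 218 CPM (log2 difference 5.71, SE 0.94, adjusted p = 0.000171). In each of them the epidermis sort came second among the 5. The others of the 15 largest were CYP710A4, a sterol desaturase, with a log2 difference of 6.69, AT4G37220 (6.68), AT1G51035 (6.63), AT2G23400 (6.13), AT1G20180 (6.13) and AT3G48343 (5.83).

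**Figure D3:**
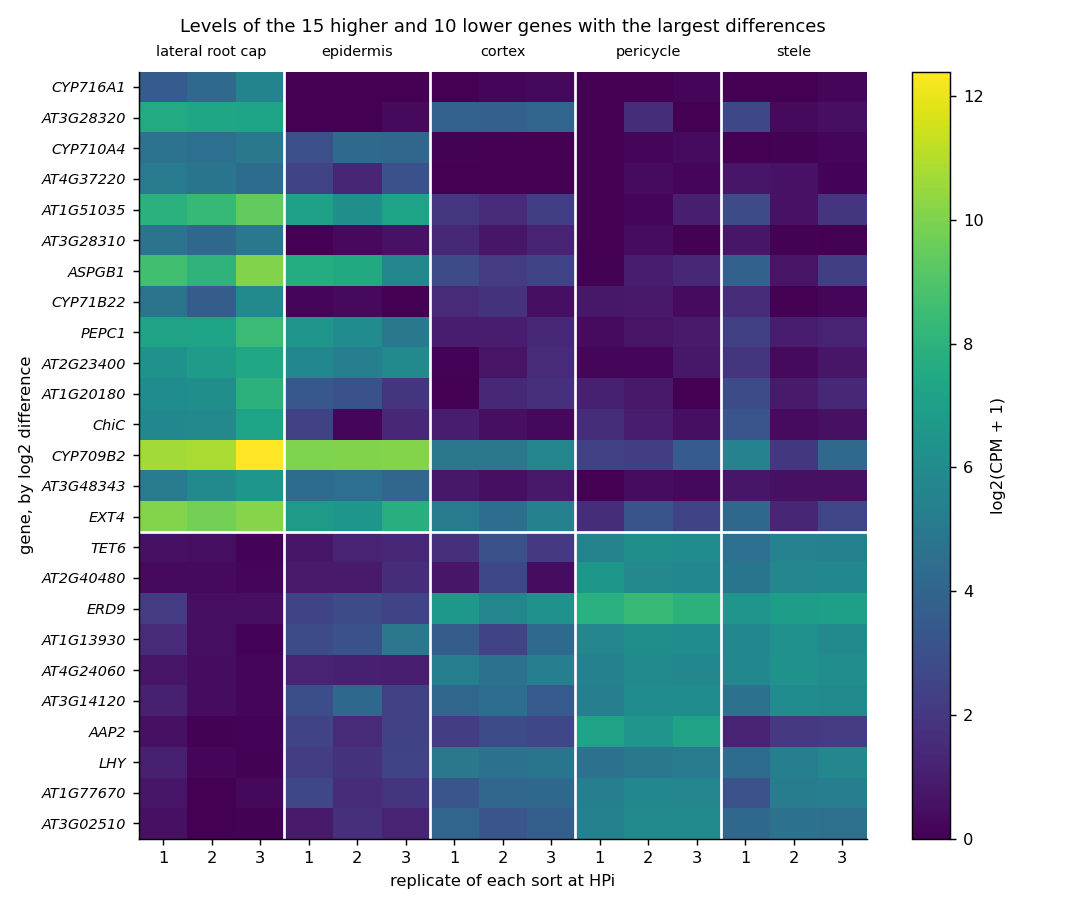
Levels as log2(CPM + 1) of the 15 higher (top) and 10 lower (bottom) genes with the largest log2 differences, in the 15 HPi libraries (columns, by sort and replicate). The upper rows are brightest in the 3 lateral root cap columns, where EXT4 had 888 to 1124 CPM, and the lower rows are brightest in the pericycle and stele columns. Rows were chosen for no overlap between the lateral root cap libraries and the 12 others, so that contrast follows from the choice.

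Among the 10 lower genes with the largest differences, the level was highest in the pericycle or the stele sort. LHY (AT1G01060), a MYB factor of the circadian clock, had 1.14, 0.113 and 0.0478 CPM in the lateral root cap, 3.72, 2.58 and 4.81 CPM in the epidermis and 20.2 to 52.2 CPM (median 29.1) in the inner sorts (log2 difference -6.13, SE 1.0, adjusted p = 7.61e-05). AAP2 (AT5G09220), an amino acid permease of the vascular tissue, had 0.458, 0.0567 and 0.0955 CPM against 139, 87 and 139 CPM in the pericycle sort (log2 difference -6.05, SE 0.95, adjusted p = 4.27e-05). AT3G02510, of the RCC1 family, had 0.458, 0 and 0.0478 CPM against 0.846 to 59.9 CPM (median 16.4) (log2 difference -7.12, SE 0.74, adjusted p = 1.36e-07). These 3 genes were below every other sort. ERD9 (AT1G10370), a glutathione S-transferase, had 3.66, 0.397 and 0.43 CPM against 4.62 to 334 CPM (median 91.6) (log2 difference -5.65, SE 0.87, adjusted p = 5.31e-05), and it overlaps AT1G10360 on the same strand. The other lower genes were AT1G77670 (-6.33), the nuclear pore protein gene AT3G14120 (-5.92), the Dof factor AT4G24060 (-5.92), AT1G13930 (-5.66), AT2G40480 (-5.58) and TET6, a tetraspanin (-5.19).

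Phosphate uptake genes were high in the lateral root cap sort at HPi. Roots take up phosphate through PHT1 proton symporters in the outer cell layers, and when phosphate is short the MYB factor PHR1 binds the P1BS motif in its targets and raises them, while SPX proteins hold PHR1 back when phosphate is plentiful. Of 8 PHT1 genes 6 were higher and 0 lower, with a median log2 difference of 3.64, or 3.29 at the floor, and a median against the epidermis sort of 1.60 with 0 called by edgeR, DESeq2 or limma, 0 also at an unadjusted p under 0.05.

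PHT1;1 (AT5G43350) had 335, 319.7 and 329 CPM in the lateral root cap, 343, 327 and 469 CPM in the epidermis and 1.27 to 8.07 CPM (median 4.01) in the inner sorts (log2 difference 4.75, SE 0.85, adjusted p = 0.000384). PHT1;4 (AT2G38940) had 339, 131 and 238 CPM in the lateral root cap and 95.1, 147 and 143 CPM in the epidermis, with 1.88 to 25.4 CPM (median 7.75) inside (log2 difference 3.77, SE 0.36, adjusted p = 5.93e-08). Outer and inner sorts did not overlap in either gene, while lateral root cap and epidermis did. PHT1;2, PHT1;8, PHT1;3 and PHT1;9 had log2 differences of 5.17, 3.96, 3.51 and 3.06. PHT1;1, PHT1;2 and PHT1;3 are near-identical neighbours, so the split of reads between them is uncertain, and PHT1;8 had 0 reads in the cortex sort, where its mean was at least 41.3-fold higher in the lateral root cap by a floor of 3 reads over the group. In edgeR the adjusted p became 0.111 for PHT1;8 without lateral root cap replicate 2, and 0.0921 for PHT1;3 and 0.0652 for PHT1;9 without replicate 3.

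Of 18 phosphate starvation genes, a list added after the values of the named genes were seen, 11 were higher and 0 lower, with a median log2 difference of 2.31. Against the epidermis sort alone the median was 0.42, with 1 called higher and 0 lower by edgeR. PS2 (AT1G73010), a phosphatase of pyrophosphate, was the one member above each of the 4 sorts. It had 164, 239 and 336 CPM in the lateral root cap, 47, 47 and 48.1 CPM in the epidermis and 5.03 to 120.4 CPM (median 44.5) in the inner sorts, without overlap (log2 difference 2.85, SE 0.30, adjusted p = 1.46e-07). Against the epidermis alone the log2 difference was 2.38 (adjusted p = 0.00394).

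PEPC1 (AT1G17710), a phosphatase related to PS2 that acts on phosphocholine and phosphoethanolamine, had 139, 143 and 344 CPM, above the epidermis at 88.5, 62.8 and 29.8 CPM (log2 difference 6.18, SE 0.83, adjusted p = 1.99e-05). SQD2 (AT5G01220), which makes sulfolipid in place of phospholipid, had 1444, 1611 and 3951 CPM in the lateral root cap, 1486, 1602 and 1682 CPM in the epidermis and 6.19 to 61.2 CPM (median 28) inside (log2 difference 5.06, SE 0.61, adjusted p = 4.83e-06). Lateral root cap and epidermis overlapped for SQD2 and not for PEPC1. SPX1 (AT5G20150), the phosphate sensor, had 320.0, 143 and 389.7 CPM (log2 difference 2.40, SE 0.46, adjusted p = 0.000456), and SPX2 (AT2G26660) had 184, 120.3 and 190.0 CPM (log2 difference 1.16, SE 0.30, adjusted p = 0.00587).

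Enzymes that break down phospholipids were also higher than the mean of 4, with no edgeR call against the epidermis sort alone. PLDP2 (AT3G05630), a phospholipase D, had 269.8, 367 and 673 CPM in the lateral root cap and 25.4 to 77 CPM (median 44.6) in the inner sorts (log2 difference 2.45, SE 0.26, adjusted p = 2.06e-07). NPC4 (AT3G03530), a phospholipase C, had 27.7, 71.4 and 71 CPM and 0.46 to 7.48 CPM (median 3.63) (log2 difference 3.11, SE 0.39, adjusted p = 2.11e-06). GDPD1 (AT3G02040), a glycerophosphodiester phosphodiesterase, had 212, 123 and 285 CPM and 22.2 to 43.3 CPM (median 25.7) (log2 difference 2.38, SE 0.28, adjusted p = 9.05e-07). All 3 were separate from the inner libraries. G3PP1, a permease for glycerol 3-phosphate, MGD3, a galactolipid synthase, and PAP17, an acid phosphatase, had log2 differences of 2.24, 3.35 and 0.92, the last with an adjusted p of 0.064 in edgeR without lateral root cap replicate 3. The remaining 7, among them the non-coding RNAs IPS1 and AT4, which sequester miR399, were not called. IPS1 had 0.458, 1.13 and 0.239 CPM and AT4 had 99.1, 110.1 and 108 CPM in the lateral root cap sort.

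**Figure D4:**
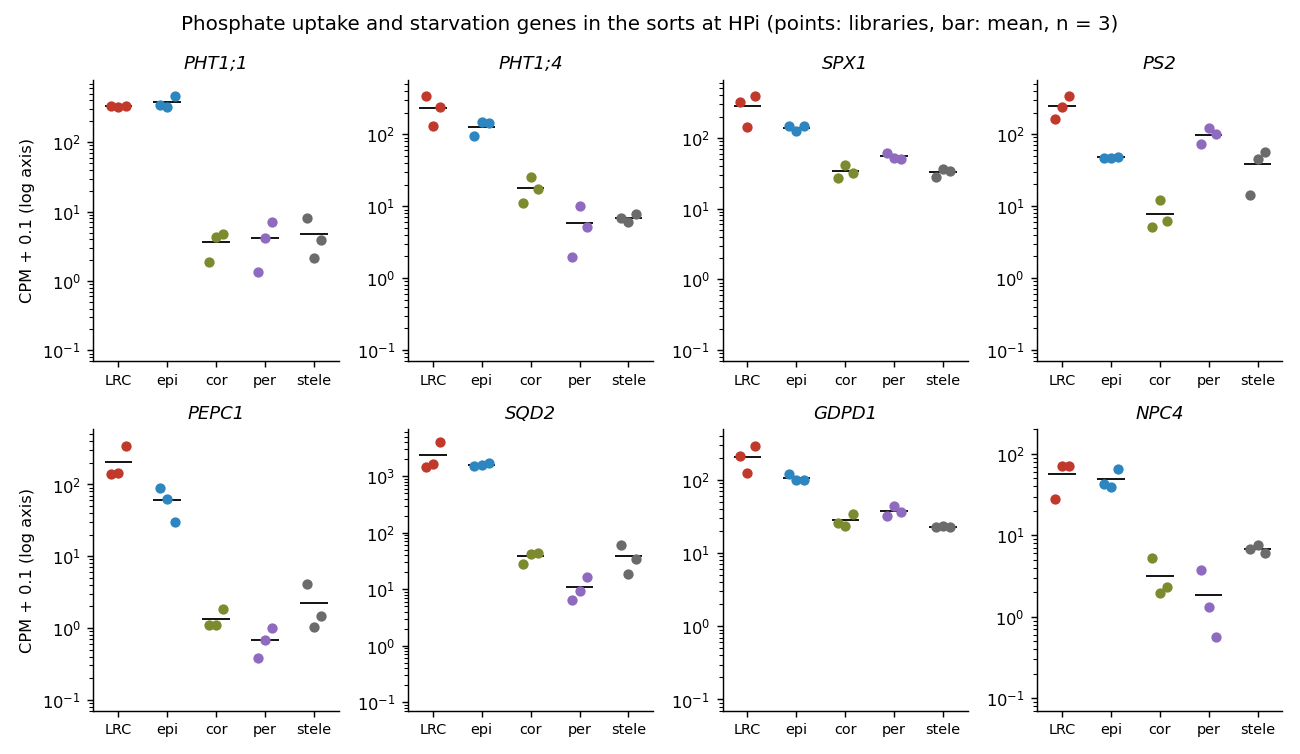
Level of 8 phosphate uptake and starvation genes (CPM + 0.1, log axis) in the 15 HPi libraries, with 1 point per library and a bar at the mean of 3. Lateral root cap (LRC) and epidermis (epi) libraries lay above cortex (cor), pericycle (per) and stele libraries in 7 of the panels, and in PS2 the lateral root cap libraries at 164 to 336 CPM lay above all others.

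The P1BS motif was looked for in the 250 bases before the annotated start of each gene, because PHR1 binds it. The 4 promoters printed, of starvation genes that were called higher and hold a match, are from the RefSeq annotation of TAIR10.1, read by gene identifier, and capitals mark the match to GNATATNC, searched on both strands.
PS2 (chr1:27466349-27466598, minus strand): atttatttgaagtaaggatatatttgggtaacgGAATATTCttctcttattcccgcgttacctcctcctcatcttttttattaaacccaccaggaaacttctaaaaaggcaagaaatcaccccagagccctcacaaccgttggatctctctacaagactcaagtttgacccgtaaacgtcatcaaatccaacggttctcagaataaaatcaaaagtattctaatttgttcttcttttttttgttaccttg
GDPD1 (chr3:350011-350260, minus strand): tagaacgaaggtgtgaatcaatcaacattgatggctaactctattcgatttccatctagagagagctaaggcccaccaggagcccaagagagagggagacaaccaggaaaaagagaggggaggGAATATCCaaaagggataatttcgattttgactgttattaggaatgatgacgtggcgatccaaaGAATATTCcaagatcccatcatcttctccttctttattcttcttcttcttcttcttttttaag
NPC4 (chr3:845097-845346, minus strand): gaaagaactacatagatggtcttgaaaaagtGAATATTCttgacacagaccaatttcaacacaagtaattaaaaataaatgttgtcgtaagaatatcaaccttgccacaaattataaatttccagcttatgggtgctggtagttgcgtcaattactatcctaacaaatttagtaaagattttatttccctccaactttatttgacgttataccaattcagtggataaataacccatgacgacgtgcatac
PLDP2 (chr3:1634944-1635193, plus strand): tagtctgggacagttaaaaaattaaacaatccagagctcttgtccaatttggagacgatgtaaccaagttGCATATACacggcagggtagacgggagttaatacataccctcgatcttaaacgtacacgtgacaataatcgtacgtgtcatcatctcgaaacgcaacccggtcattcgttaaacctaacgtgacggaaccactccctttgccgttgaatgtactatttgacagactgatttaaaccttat

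The first base of the match lay at -217 in PS2, at -219 in NPC4, at -180 in PLDP2 and at -127 and -63 in GDPD1, counted from the gene start. P1BS was found in 1280 of the 23656 promoters read (5.41%), in 219 of 2964 promoters of higher genes (7.39%) and in 147 of 2821 of lower genes (5.21%). It was in 7 of the 18 starvation genes (38.9%) and in 4 of the 11 that were called higher (36.4%). The share among called members was thus no larger than in the whole list. Of the 23 genes above each sort 6 held it (26.1%), PS2 among them. TTGAC followed by C or T, the W-box bound by WRKY factors, was in 28.4% of all promoters, in 34.0% of those of higher genes and in 25.8% of lower ones. CACGTG, the G-box of bHLH and bZIP factors, was in 6.94%, 6.34% and 7.44%. A match is a description of the letters and not of binding.

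Myrosinases were among the most abundant transcripts of the sort. The 5 genes with the highest mean CPM, not adjusted for length, were BGLU35, the mitochondrial ATMG00020, MLP-300B, BGLU34 and UBQ3. BGLU35 (AT1G51470) and BGLU34 (AT1G47600) are root myrosinases, enzymes that cut glucosinolates into defence compounds, and MLP-300B (AT3G16440) is a lectin of the myrosinase-binding kind. BGLU35 had 11652, 13942 and 29669 CPM in the lateral root cap, 9909, 12178 and 13746 CPM in the epidermis and 11 to 351 CPM (median 128) in the inner sorts (log2 difference 5.64, SE 0.97, adjusted p = 0.00027). BGLU34 had 6132, 7057 and 14871 CPM and 14208, 15658 and 18334 CPM in the outer sorts (log2 difference 4.78, SE 1.0, adjusted p = 0.00161). Both overlapped between the outer sorts and were separate from the inner ones. MLP-300B had 7165, 7731 and 18606 CPM (log2 difference 5.28, SE 1.02, adjusted p = 0.000794), and PYK10, the beta-glucosidase of endoplasmic reticulum bodies, had 6476, 5353 and 7260.1 CPM (log2 difference 2.53, SE 0.22, adjusted p = 1.05e-08).

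Of 43 jacalin and myrosinase-binding lectins 14 were higher and 0 lower, with a median log2 difference of 1.89. Against the epidermis sort alone their median was 0.34, with 0 called by edgeR. Of 13 genes of indole glucosinolate and camalexin synthesis 2 were higher and 4 lower, but 3 and 2 with RLE size factors. PEN2, a myrosinase of pathogen defence, was higher at 185, 156 and 223 CPM (log2 difference 3.13, SE 0.51, adjusted p = 9.53e-05). PAD3, the last enzyme of camalexin synthesis, was lower at 8.47, 5.21 and 7.64 CPM against 8.45 to 381 CPM (median 132) in the inner sorts (log2 difference -2.43, SE 0.51, adjusted p = 0.000994). CYP83B1, SUR1 and MYB34, which make or control indole glucosinolates, had log2 differences of -2.28, -1.32 and -1.76. The call of SUR1 was lost without lateral root cap replicate 2 or 3 (edgeR adjusted p = 0.133 or 0.178). That of MYB34 was lost without any one of lateral root cap replicates 1, 2 and 3, epidermis replicate 3, cortex replicate 3 or stele replicates 2 and 3 (edgeR adjusted p = 0.0522 to 0.119).

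Several families of defence and detoxification enzymes were over the background against the mean of 4, with few calls against the epidermis sort alone. Families were collected by words in the RefSeq product names, and the background is 12.4% higher and 11.5% lower. Of 22 chitinases 11 were higher (50.0%) and 1 was lower, with a median log2 difference of 3.09. Of 226 cytochromes P450, 65 were higher (28.8%) and 12 lower (5.31%), with a median of 1.46. Peroxidases were higher in 22 of 71 (31.0%) and lower in 4. Against the epidermis sort alone edgeR called 1 chitinase, 5 P450s and 0 peroxidases higher, and 0, 3 and 0 lower. Over all genes those shares were 0.627% higher and 1.29% lower. The family medians against the epidermis were 0.27, 0.23 and 0.29. Summed chitinase levels were 2336 to 4168 CPM in the lateral root cap and 4952 to 5841 CPM in the epidermis libraries. Glutathione S-transferases were split, with 9 of 52 higher and 11 lower. Beta-glucosidases were higher in 13 of 66 and lower in 4, or 20 and 1 with RLE size factors. Of the transport proteins, 18 of 83 ABC transporters, 43 of 220 sugar and amino acid permeases and 5 of 24 aquaporins were higher, and 10, 28 and 4 were lower. With RLE size factors 9 aquaporins were higher.

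CHIA (AT5G24090), an acidic chitinase, had 233, 124 and 159.5 CPM in the lateral root cap, 67.3, 51.9 and 127 CPM in the epidermis and 0.739 to 13.7 CPM (median 4.66) inside (log2 difference 4.24, SE 0.56, adjusted p = 1.03e-05). CHI (AT2G43570) had 25.6, 16.9 and 10.1 CPM against 0 to 0.853 CPM (median 0.142) in the inner sorts (log2 difference 5.18, SE 0.63, adjusted p = 1.05e-06). The peroxidase gene AT2G37130 had 2447, 1627 and 2010.0 CPM, above the epidermis at 918, 702 and 999.8 CPM (log2 difference 4.42, SE 0.58, adjusted p = 1.2e-05). Among the glutathione S-transferases, GSTU22 had 576, 469.6 and 686 CPM (log2 difference 2.88, SE 0.32, adjusted p = 3.93e-07), whereas GSTF9 had 13, 7.19 and 3.96 CPM against 237 to 456 CPM (median 283) inside (log2 difference -4.32, SE 0.47, adjusted p = 2.69e-07). UDP-glycosyltransferases were higher in 29 of 117 and lower in 11, and UGT74E2 (AT1G05680), which glucosylates the auxin indole-butyric acid, had 881, 387 and 1012 CPM (log2 difference 3.10, SE 0.51, adjusted p = 0.000104).

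Wall proteins of growing cells were called mostly in 1 direction. Extensins, the structural glycoproteins of the wall, were higher in 16 of 24 (66.7%) and lower in 0, with a median log2 difference of 3.71. Against the epidermis sort alone their median was -0.003, with 0 called by edgeR. Their summed level was 12265 to 13117 CPM in the lateral root cap and 9541 to 14748 CPM in the epidermis libraries. Xyloglucan endotransglucosylases were higher in 10 of 29 (34.5%) and lower in 2, and expansins in 9 of 27 (33.3%) and 2. Against the epidermis sort alone their medians were -0.20 and -0.04. In that comparison edgeR called 0 and 2 of them higher, and 0 and 0 lower. Receptor-like kinases were higher in 63 of 331 and lower in 26. Pectin enzymes were closer to the background, with 20 of 92 pectin methylesterases and inhibitors higher and 6 lower, and 20 of 104 polygalacturonases and pectate lyases higher and 10 lower. PMEPCRA (AT1G11580), a pectin methylesterase, was lower than each of the 4 sorts, at 9.61, 2.66 and 4.39 CPM against 15.7, 19.9 and 16.9 CPM in the epidermis and 319 to 607 CPM (median 399.9) inside (log2 difference -5.18, SE 0.49, adjusted p = 4.68e-08). Cysteine proteases, which include enzymes of cell death, were higher in 17 of 52 (32.7%) and lower in 4, or 26 and 3 with RLE size factors.

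Among transcription factors, WRKY and NAC genes were called higher more often than the 12.4% over all genes. Against the epidermis sort alone edgeR called 2 WRKY and 2 NAC factors higher, and 1 and 0 lower. WRKY factors act in defence and senescence, and 24 of 68 (35.3%) were higher and 9 (13.2%) lower, with a median log2 difference of 1.21. NAC factors were higher in 20 of 93 (21.5%) and lower in 9, homeobox factors in 12 of 76 and 5, and AP2/ERF factors in 18 of 131 and 10. C2H2 zinc finger factors were higher in 9 of 78 and lower in 2, and GRAS factors in 1 of 24 and 2. Dof factors, many of them of the vasculature, were higher in 1 of 24 and lower in 6. MYB factors (25 of 222 higher, 27 lower) and bHLH factors (9 of 122 higher, 11 lower) had medians near 0. With RLE size factors the MYB counts were 35 and 21 and the median turned from -0.09 to 0.23, the bHLH counts were 20 and 10, the GRAS counts 4 and 2 with a median that turned from -0.03 to 0.26, the NAC counts 24 and 3, and the C2H2 counts 15 and 2, beside the shift of all genes.

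WRKY42 (AT4G04450), a factor that regulates phosphate homeostasis, had 32.5, 55.5 and 53.7 CPM in the lateral root cap, 4.06, 5.08 and 13.8 CPM in the epidermis and 0 to 3.37 CPM (median 0.779) inside (log2 difference 5.02, SE 0.75, adjusted p = 3.57e-05). WRKY61 (AT1G18860) had 39.4, 38.9 and 18.8 CPM and overlapped the epidermis only at its replicate 3, with 8.12, 6.41 and 20.4 CPM (log2 difference 4.63, SE 0.64, adjusted p = 9.54e-06). WRKY28 (AT4G18170) was lower than each sort at 0.229, 0.17 and 0 CPM against 1.16 to 19.5 CPM (median 6.93) (log2 difference -5.64, SE 0.89, adjusted p = 3.72e-05). NAC3 (AT3G15500), a NAC factor of abscisic acid and jasmonate responses, had 355, 401 and 792 CPM (log2 difference 2.10, SE 0.25, adjusted p = 7.23e-07), and NAC019 (AT1G52890), a close relative, was lower at 11.2, 8.67 and 1.86 CPM against 167 to 347 CPM (median 223) inside (log2 difference -3.79, SE 0.48, adjusted p = 1.94e-06). HB23 (AT5G39760), a zinc finger homeodomain factor, had 24.3, 19.9 and 5.83 CPM against 0 to 3.96 CPM (median 0.739) (log2 difference 4.34, SE 0.74, adjusted p = 9.4e-05). AT1G68670, a MYB-like factor, had 165, 132 and 268 CPM (log2 difference 2.23, SE 0.26, adjusted p = 5.16e-07), and the Dof gene DAG1 (AT3G61850) had 1.6, 3.46 and 1.67 CPM against 18.4 to 194 CPM (median 139) inside (log2 difference -4.06, SE 0.55, adjusted p = 5.61e-06).

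Triterpene genes differed among themselves in their level against the epidermis. Thalianol and marneral are root triterpenes made by neighbouring genes, the first by THAS1, CYP708A2 and CYP705A5 and the second by MRN1 and CYP71A16. Of 6 genes 4 were higher and 0 lower, with a median log2 difference of 1.96. MRN1 (AT5G42600) had 522, 360.5 and 568 CPM in the lateral root cap and 619, 962 and 561 CPM in the epidermis sort, overlapping each other and far above 0 to 17.5 CPM (median 4.09) inside (log2 difference 4.90, SE 1.05, adjusted p = 0.00189). THAS1 (AT5G48010) instead had 6.64, 0.17 and 0.0478 CPM in the lateral root cap and 2469.9, 2861 and 3247 CPM in the epidermis sort. CYP705A5 (AT5G47990) had 3.43, 0.34 and 0.0478 CPM and 1669, 1742 and 2142 CPM, and was lower than the epidermis (log2 difference -11.00, SE 2.76, adjusted p = 0.0421). For THAS1 the same comparison gave -10.64 and missed the threshold (adjusted p = 0.0686). CYP708A2 (AT5G48000), of the same cluster, had 217, 88.7 and 206 CPM in the lateral root cap and 845, 747 and 1056 CPM in the epidermis (log2 difference 2.77, SE 0.86, adjusted p = 0.0244). Its adjusted p in edgeR was 0.0672 without lateral root cap replicate 1 and 0.0791 without replicate 3.

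Iron uptake genes were shared with the epidermis. Of 9 iron and coumarin genes 5 were higher and 0 lower, with a median log2 difference of 2.03. FRO2 (AT1G01580), the ferric reductase of the root surface, had 83.1, 49.3 and 89.6 CPM in the lateral root cap, 41.3, 50.7 and 29.2 CPM in the epidermis and 0 to 1.34 CPM (median 0.652) inside (log2 difference 5.45, SE 0.83, adjusted p = 6.23e-05). ABCG37 (AT3G53480), which exports coumarins, had 944, 1115 and 1226 CPM (log2 difference 3.54, SE 0.68, adjusted p = 0.000675). F6'H1, which makes coumarins, AHA2, the proton pump, and FRU, their bHLH regulator, had log2 differences of 2.03, 0.88 and 1.19. FRO2 did not overlap between outer and inner sorts. FRU lost its call without any one of lateral root cap replicate 3, cortex replicate 2, pericycle replicates 1 and 3 or stele replicates 1 and 2 (edgeR adjusted p = 0.0591 to 0.248).

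Of 12 auxin carriers 2 were higher (16.7%) and 4 lower (33.3%), with a median log2 difference of -1.41. Against the epidermis sort alone the median was -0.63, with 0 called by edgeR. At an unadjusted p under 0.05, 0 were higher and 3 lower than in the epidermis. PIN2 (AT5G57090), which moves auxin from the tip through cap and epidermis, had 153, 103 and 212 CPM in the lateral root cap, 225, 260.2 and 111 CPM in the epidermis and 1.48 to 35.8 CPM (median 4.25) inside (log2 difference 3.60, SE 0.87, adjusted p = 0.00475). ABCB4, an uptake carrier of the epidermis, was higher by 0.73, and with PIN2 made up the 2 higher genes of 12. Without lateral root cap replicate 3 its adjusted p was 0.105 in edgeR. The 4 lower ones were PIN3, PIN7, LAX3 (log2 difference -2.99, SE 0.75, adjusted p = 0.00525) and ABCB1 (AT2G36910), at 189, 201 and 207 CPM against 402 to 899 CPM (median 649.7) inside (log2 difference -1.47, SE 0.30, adjusted p = 0.000637). AUX1, the influx carrier of the lateral root cap in gravity response, was not called, with 94.3, 61.9 and 132 CPM in the lateral root cap and 183, 269 and 95.4 CPM in the epidermis. Of 8 genes of auxin synthesis and turnover 3 were higher, UGT74E2, GH3.17 (2.43), which joins auxin to amino acids and had an edgeR adjusted p of 0.122 without lateral root cap replicate 3, and the transporter AT1G72140 (3.61), and 1, IBR3, was lower (log2 difference -1.01, SE 0.27, adjusted p = 0.00808). IBR3 acts on indole-butyric acid, and without lateral root cap replicate 1 or 2 its adjusted p was 0.055 or 0.105 in edgeR.

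Of 8 flavonoid genes 1 was higher (12.5%) and 2 were lower (25%), or 2 and 1 with RLE size factors and 1 and 1 with limma. Over all genes the shares were 12.4% higher and 11.5% lower. MYB12, which switches on flavonol synthesis, had 5.95, 10.7 and 8.31 CPM against 15.8 to 94.9 CPM (median 39.8) inside (log2 difference -1.64, SE 0.38, adjusted p = 0.00233). Cuticle genes gave 1 of 8 higher, GPAT8 (log2 difference 3.70, SE 0.88, adjusted p = 0.00335), and 1 lower, DCR (log2 difference -4.85, SE 1.25, adjusted p = 0.00577). These cuticle shares, 12.5% in each direction, were near those over all genes. Of 16 wounding and stress genes 1 was higher (6.25%) and 7 were lower (43.8%), with a median log2 difference of -0.98. With RLE size factors 4 were lower. AOS, which starts jasmonate synthesis, had 47.4, 27.1 and 44.6 CPM against 153 to 385 CPM (median 221) inside (log2 difference -1.97, SE 0.36, adjusted p = 0.0002), and WRKY40 had 136, 127 and 109 CPM (log2 difference -1.47, SE 0.28, adjusted p = 0.000389). The higher one was ERF6 (AT4G17490), an ethylene response factor, at 208, 132 and 439.7 CPM (log2 difference 2.59, SE 0.42, adjusted p = 7.93e-05). Of 16 cell cycle genes 1 was higher, CYCD3;1 (log2 difference 2.70, SE 0.89, adjusted p = 0.0269), and 2 were lower, MCM5 (log2 difference -2.26, SE 0.77, adjusted p = 0.0326) and CYCB1;2. CYCB1;2 had 0 reads in the lateral root cap sort and 1.19 to 3.52 CPM in the epidermis. The call of CYCD3;1 was lost without lateral root cap replicate 1 or stele replicate 2 (edgeR adjusted p = 0.28 and 0.0603). That of MCM5 was lost without lateral root cap replicate 1 or 2, epidermis replicate 2 or cortex replicate 1 (edgeR adjusted p = 0.0511 to 0.177). The shares of the cell cycle list were 6.25% higher and 12.5% lower, the second near that over all genes. RLE size factors left the cell cycle list with 1 higher and 0 lower.

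Of the 30 families, ribosomal proteins had the highest share of lower calls. Of 343 ribosomal protein genes 137 were lower (39.9%) and 8 were higher (2.33%), with a median log2 difference of -1.64. The difference lay mainly against pericycle and stele, where the medians were -2.41 and -2.79, while they were -0.90 against the epidermis, with 1 gene called lower, and -0.40 against the cortex. Summed levels were 5114 to 6069 CPM in the lateral root cap libraries, overlapping epidermis (5310 to 12487 CPM) and cortex (4088 to 11999 CPM), and 21446 to 37508 CPM in pericycle and stele. With RLE size factors 80 were lower and 15 higher, at a median of -1.34 against 0.35 for all genes. AT3G53430, of the L11 family, had 5.95, 6.35 and 8.55 CPM in the lateral root cap, 19.5, 23.4 and 7.85 CPM in the epidermis and 15.6 to 105 CPM (median 76.1) inside (log2 difference -2.56, SE 0.44, adjusted p = 0.000109). AT1G33120, of the L6 family, had 9.61, 6.69 and 6.83 CPM (log2 difference -2.38, SE 0.43, adjusted p = 0.000172). Many ribosomal proteins have near-identical copies, and the split of reads among these is uncertain. Small heat shock proteins were lower in 8 of 34 and higher in 3, and HSP21 had 0.229, 1.13 and 0.191 CPM against 1.18 to 128 CPM (median 11.4) (log2 difference -4.69, SE 1.17, adjusted p = 0.00561). Histones went the other way, with 13 of 45 higher and 2 lower, and HTA2 (AT4G27230) had 28.4, 26.3 and 55.2 CPM against 3.36 to 17.9 CPM (median 11.1) (log2 difference 1.87, SE 0.31, adjusted p = 6.03e-05). Pentatricopeptide repeat proteins, which process RNA in organelles, were higher in 12 of 254 and lower in 20, but in 21 and 14 with RLE size factors, where their median turned from -0.14 to 0.20. Histones had 21 higher and 1 lower with RLE.

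The comparison was repeated at LPi, in samples that the HPi contrast did not use except that the fit was shared and 1 epidermis library of each was nearly identical. There 3036 genes were higher (12.2%) and 2271 lower (9.13%). The genes called higher in both numbered 2064, which is 67.0% of the HPi calls and 68.0% of the LPi calls, and 1509 were lower in both, 52.7% and 66.4%. Of the HPi calls 0 higher genes were called lower at LPi, and 1 lower gene was called higher. It was AT1G16220, of the protein phosphatase 2C family, with 2 reads in all in the lateral root cap at HPi and 0.147, 4.27 and 2.09 CPM at LPi. The lower calls at LPi became 1353 and 1265 without lateral root cap LPi replicate 1 or 3. All 23 genes above each sort at HPi were also called higher at LPi than the mean of 4, and 84 of the 143 genes below each sort were called lower. Of the 23 lists 7 had the same counts in both directions at LPi. Those with higher genes were iron and coumarin with 5, auxin transport with 2 higher and 4 lower, and phosphate starvation with 11. Root cap death went from 11 higher and 1 lower at HPi to 11 and 0 at LPi, root hair from 12 to 10 higher, and root cap regulators from 4 to 3. Fewer were higher among PHT1 genes, at 3 instead of 6, triterpene genes, at 1 instead of 4, and epidermal regulators, at 2 instead of 4. Columella genes went from 3 to 1 lower, and flavonoid genes from 1 higher and 2 lower to 0 and 1. The indole glucosinolate and camalexin list turned from 2 higher and 4 lower to 4 and 2. Ribosomal proteins had 4 higher and 101 lower at LPi. Apart from the change test over all genes, the differences between these counts were not tested.

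SMB at LPi gave log2 difference 3.94, SE 1.02, adjusted p = 0.00715, and CYP716A1 gave log2 difference 8.18, SE 0.85, adjusted p = 1.53e-07. PS2 had 248, 333 and 337 CPM in the lateral root cap at LPi (log2 difference 3.29, SE 0.30, adjusted p = 2.75e-08). The difference between the LPi and HPi contrasts was called for 1 gene of 24866 (0.00402%). PMR6 (AT3G54920), a pectin lyase-like protein needed for growth of powdery mildew, had 0.229, 0.17 and 0.0955 CPM in the lateral root cap at HPi and 10.3, 2.52 and 7.79 CPM at LPi. Its level was 4.03 to 32.2 CPM (median 15.5) in the 12 other HPi libraries, so all lateral root cap HPi libraries were below them (log2 difference -6.62, SE 0.79, adjusted p = 8.84e-07), while at LPi the log2 difference was -1.06 (adjusted p = 0.131). Given as LPi minus HPi, the change in the log2 difference was 5.56 (SE 0.85, edgeR adjusted p = 0.0096). PMR6 overlaps a gene on each strand, whose reads cannot be told apart from its own.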

How the data were processed

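RNA from sorted root cells was amplified with the SMART-Seq v4 and ThruPLEX kits, per the labels. The authors deposited 1 table of whole-number read counts for 32833 genes in 30 libraries, not normalized, and the submitters' processing notes name CASAVA 1.4, FastQC 0.11.9, MultiQC 1.7, STAR 2.5.3a and HTSeq 1.99.2. The aligner's genome build, its annotation and whether counting used strand were not given in the sources used here. The 5 lines of reads that HTSeq did not assign, 10.0% to 11.3% of the reads in the lateral root cap libraries, were left out. A total of 32548 genes matched RefSeq TAIR10.1, and 285 did not. No column was left unused.

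Samples were grouped by their labels. Genes with enough reads by filterByExpr (24866) were scaled by TMM and fitted with the robust quasi-likelihood F test of edgeR 4.0.16 (R 4.3.3), with 1 mean for each of 10 groups over all 30 libraries, 20 residual degrees of freedom and a common biological coefficient of variation of 0.749. The contrast was the lateral root cap minus the mean of the 4 other sorts, calls were made at a Benjamini-Hochberg adjusted p under 0.05 over all genes, and standard errors were taken as the log2 difference divided by the root of F. Differences are fitted values, and those of genes at 0 in a group depend on the prior count. A floor of 3 reads over the group was used for such genes. Reads were amplified and are not independent molecules, so the floor covers counting error only.

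The comparison to be described, the 22 gene lists and the 30 families found by words in RefSeq product names were chosen with earlier results of these data known, and 1 list, of phosphate starvation genes, was added after the values of the named genes were seen. Genes named were up to 15 higher and 10 lower with the largest differences among calls with a mean of at least 20 CPM and no overlap with the 12 other HPi libraries, up to 4 of each list and 3 of each family by smallest p, the 5 with the highest level and 21 markers. Other list members, the genes above each of the 4 sorts and AT1G16220 were named after their values were seen. Lists were described by counts and medians with no test of their own. Alternatives were RLE scaling, other filters, DESeq2 1.42.0, limma 3.58.1 with voom and sample weights, a replicate block, the HPi or LPi libraries alone, a minimum log2 difference of 1, no organelle genes and leaving out libraries. The scripts were tested on simulated data with 200 planted genes. Promoters (250 bases before the start, 23656 read) came from the TAIR10.1 sequence, and figures were drawn with matplotlib 3.10.9.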

Additional observations from a re-analysis of the deposited data

Results flagged for a closer look

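PMR6 is given here because its difference from the mean of the 4 other sorts differed between the phosphate levels, by a test of that difference itself. The change from HPi to LPi was 5.56 on the log2 scale (SE 0.85, edgeR adjusted p = 0.0096), with a log2 difference of -6.62 at HPi and -1.06 (LPi). The lateral root cap libraries had 0.229, 0.17 and 0.0955 CPM at HPi and 10.3, 2.52 and 7.79 CPM at LPi, which do not overlap. It was 1 gene of 24866 tested.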

How the results depend on the processing

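At an adjusted p under 0.05 the comparison with the mean of the 4 other sorts gave 3082 higher and 2866 lower genes at HPi and 3036 and 2271 at LPi, and 23 genes were above and 143 below each sort at HPi. With RLE size factors 4687 were higher at HPi and 41 above each sort. All 3082 higher calls were among these 4687, and the median log2 difference over all genes was 0.35 against 0.02. A minimum log2 difference of 1 left 1525 and 1119 at HPi, 1340 and 704 at LPi, and 6 above and 40 below each sort. The counts above each sort were 43 with at least 5 CPM in at least 3 libraries and 13 without the nearly identical epidermis libraries. Above and below each sort they were 87 and 337 with DESeq2, 79 and 58 with limma voom, 38 and 233 in the 15 HPi libraries alone, and 53 and 280 without the 3 shallowest libraries. The cause of these moves was not tested, except that fewer or more samples and genes enter some of the fits.

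Leaving out 1 library at a time gave 2564 to 3720 higher and 1721 to 3005 lower genes at HPi, 2342 to 3946 and 1265 to 2464 at LPi, and 4 to 20 above and 69 to 292 below each sort. The labels give replicate numbers but nothing that pairs them, and deviations from the group means of same-numbered libraries correlated from -0.08 to 0.10, with the same number the best match in 7 of 12 pairs of a lateral root cap library and a sort. With the replicate block the counts were 2801 and 2796 at HPi, 2887 and 2212 at LPi, and 26 and 128 for each sort. The block took the adjusted p of WER to 0.0512 and of MCM5 to 0.0556 in edgeR. Of 137 named genes 137 kept their direction under every alternative run, and 27 lost their call under at least 1, of which 19 without 1 library. The depth of the lateral root cap libraries, from 4434144 to 23870243 assigned reads, limits the precision of genes with few reads.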
